A study of Rattus norvegicus with 10 samples.

Results

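The genes described here are 10 genes that handle selenium, peroxide, iron, copper and zinc: Gpx1, Gpx3, Gpx4, Txnrd1, Txnrd2, Sod1, Tfrc, Fth1, Cp and Mt1a. They were picked by gene name for what their proteins do, with earlier results of these data known, out of 36061 genes on the array, and 19 of its 41012 measuring probes belong to them. RNA came from 10 mammary tumours of tubular or papillary type, each from a female Sprague-Dawley rat of 110 days. In 5 of them the dam had eaten a Western-style diet, high in fat and low in fibre and oligoelements (trace elements), and in the other 5 a control diet. The diets were given from day 12 to day 20 of gestation and from day 1 to day 21 after birth. After weaning the daughters of both groups ate the control diet, and at 3 weeks of age all were injected once with the carcinogen N-methyl-N-nitrosourea (MNU), at 50 mg/kg, to induce mammary tumours. Every tumour is thus a carcinogen-induced one, no tumour-free gland was used here, and the daughters themselves never ate the Western-style diet as their own feed after weaning. Dam and litter of each tumour are not labelled, so p-values measure only the spread between these tumours.

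Selenoproteins carry selenium as the amino acid selenocysteine, which is inserted at a UGA codon with the help of an element in the 3′ end of the messenger RNA. When selenium is short, cells are known to ration it among these proteins, and the messenger RNA of Gpx1 is known to be more sensitive to the supply than that of Gpx4. Iron enters most cells bound to transferrin through the receptor encoded by Tfrc and is stored inside the ferritin shell, whose heavy chain is Fth1. The iron regulatory proteins stabilise the Tfrc messenger RNA and block translation of ferritin when iron is low, and the ferritin control therefore acts mostly on the protein, which an array does not measure. Copper is the cofactor of Sod1, which removes superoxide, and of ceruloplasmin (Cp), which oxidises iron as it leaves cells. Metallothioneins such as Mt1a bind zinc and copper, and the transcription factor Mtf1 switches them on through metal response elements in their promoters.

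The metallothionein promoters are shown because they carry the element by which metal supply is known to reach these genes. The sequences are the 250 bases before the annotated start, 5′ to 3′ on the gene's strand, from RefSeq on the GRCr8 assembly. They lie at chr19:10832976-10833225 for Mt1a, which RefSeq calls Mt1, and at chr19:10838709-10838958 for Mt2A, both on the minus strand. Capitals mark matches to the core of the metal response element, searched as TGCACNC or TGCGCNC on both strands.
Mt1a: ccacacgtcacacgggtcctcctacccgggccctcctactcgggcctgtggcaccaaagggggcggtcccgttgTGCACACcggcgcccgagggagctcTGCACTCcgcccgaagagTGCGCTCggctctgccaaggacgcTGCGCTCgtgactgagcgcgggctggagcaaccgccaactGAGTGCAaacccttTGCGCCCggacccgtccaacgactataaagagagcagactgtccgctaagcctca
Mt2A: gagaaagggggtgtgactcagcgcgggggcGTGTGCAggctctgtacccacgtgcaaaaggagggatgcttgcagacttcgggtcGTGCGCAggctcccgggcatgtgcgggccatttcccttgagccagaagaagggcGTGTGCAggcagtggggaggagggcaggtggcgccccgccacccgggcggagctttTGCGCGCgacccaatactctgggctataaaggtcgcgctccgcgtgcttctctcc
The Mt1a window held 6 matches, starting 176, 151, 133, 109, 69 and 55 bases before the transcription start. The Mt2A window held 4, starting 220, 165, 111 and 55 bases before it. Among 33469 rat promoter windows of the same length, 20.6% held at least 1 match, 0.266% at least 4 and 0.0269%, which is 9 windows, at least 6. RefSeq promoters were matched for 9 of the 10 genes, with 12 start sites. Of these, Tfrc held 3 matches, of which the last 2 overlap, and 1.17% of all windows held at least 3. No match was found in the windows of Gpx1, Gpx3, Gpx4, Txnrd1, Txnrd2, Sod1 or Cp, which says only that these letters are not in those windows. The second start site of Txnrd1 is shown for the antioxidant response element, through which the factor Nrf2 is known to drive genes of thiol metabolism. The window lies at chr7:22755905-22756154 on the minus strand, and capitals mark the match to TGACNNNGC, which was searched on both strands.
Txnrd1: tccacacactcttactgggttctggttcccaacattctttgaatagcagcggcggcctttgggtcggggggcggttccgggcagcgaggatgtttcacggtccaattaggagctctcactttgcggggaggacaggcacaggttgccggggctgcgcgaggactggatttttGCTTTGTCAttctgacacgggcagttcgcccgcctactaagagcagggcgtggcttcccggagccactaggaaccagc
This match starts 78 bases before the transcription start. Mt1a held 1 such match and Mt2A held 1, at 101 and 237 bases, and 10.1% of all windows held at least 1. A match is a run of letters and was not tested as a binding site.

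Each tumour was read on 1 single-colour Agilent array. A level below is log2 of the processed spot intensity minus the 75th percentile of that array, so 0 is the 75th percentile and a difference of 1 is a doubling. The arrays of the Western-style diet group were dimmer on the whole: their 75th percentile lay between 72.8 and 170 intensity units, against 85.0 to 226 in the control group, and 16686 to 21907 probes per array were well above background. The arrays lay on 3 slides, which held 2, 2 and 1 tumours of the Western-style diet group and 1, 2 and 2 controls, and each slide had its own scan. Against the tissue label, all 5 luminal epithelial markers (Krt8, Krt18, Krt19, Epcam and Cdh1) were measured, with a mean level of 5.11 to 5.71 in the Western-style diet tumours and 5.59 to 6.33 in controls. Of the markers of other cells, 6 of 6 for macrophages and 5 of 5 for fibroblasts had a higher mean in the Western-style diet group. So did 51.4% of all genes and 42.1% of the tested genes with a symbol. Of 4 measured milk-secreting epithelium markers, 3 had a lower mean. None of these macrophage, fibroblast and milk-secreting markers passed the test. Of them, the macrophage marker Mrc1 was at an unadjusted p under 0.05 in limma. Of the 5 luminal markers 4 had a lower mean in the Western-style diet group. So did 48.6% of all genes and 4785 of the 8270 tested genes with a symbol. Krt8 (difference -0.96) and Krt19 (-1.11) were at an unadjusted p under 0.05 in limma and did not pass the test. Each lay below the control mean in 5 of 5 Western-style diet tumours. At that p, 881 of the 8270 tested genes with a symbol were lower. In whole tumours, fewer cells of a type and less RNA per cell cannot be told apart.

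The comparison of the study is the tumours of the 2 maternal diets. All 10 genes were expressed well enough to pass the filter, which asked for a signal well above background in 5 or more of the 10 tumours, and no value of theirs came from a saturated spot. In the Western-style diet group 5 of the 10 genes had a higher mean (Gpx3, Txnrd1, Sod1, Cp and Mt1a) and 5 a lower mean (Gpx1, Gpx4, Txnrd2, Tfrc and Fth1), against 48.6% of all genes with a lower mean. The sizes were modest, from a difference of -0.74 for Fth1 to 0.69 for Gpx3, with a median of 0.03 against 0.01 over all 16779 genes tested. No member passed the test (limma, Benjamini-Hochberg adjusted p under 0.05 over all genes), and neither did any other gene: 0 of 16779 were called (0%), with a lowest adjusted p of 0.136. At an unadjusted p under 0.05 were 2 of the 10 genes, Tfrc and Fth1, both lower, against 15.5% of all genes in either direction and 7.72% lower. In either direction, 2 of 10 is close to that background. The members all have a symbol, and genes with a symbol leaned lower: of 8270 tested, 42.1% had a higher mean. At an unadjusted p under 0.05 in limma, 881 of these 8270 were lower and 363 higher. Tfrc and Fth1 were both at an unadjusted p under 0.05 in 5 of 20 alternative runs. Of these 20, 10 left out 1 tumour each, and 1 of those 10 held both genes. The groups were separate, with no overlap, for 0 of the 10 genes, against 3.65% of all genes (1.34% with the Western-style diet group above and 2.32% with it below).

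**Figure D1:**
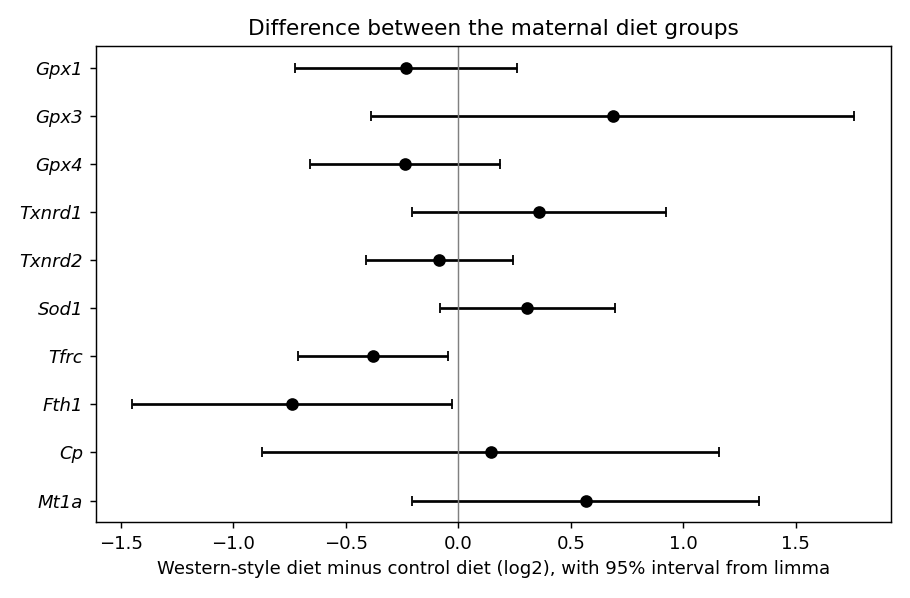
Difference between the group means (maternal Western-style diet minus control diet, log2 units, x axis) for each of the 10 genes (y axis), with the 95% confidence interval of the limma fit over 5 tumours per group. Of the intervals, those of Tfrc (-0.71 to -0.05) and Fth1 (-1.45 to -0.03) lie below 0 and the other 8 cross it.

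**Figure D2:**
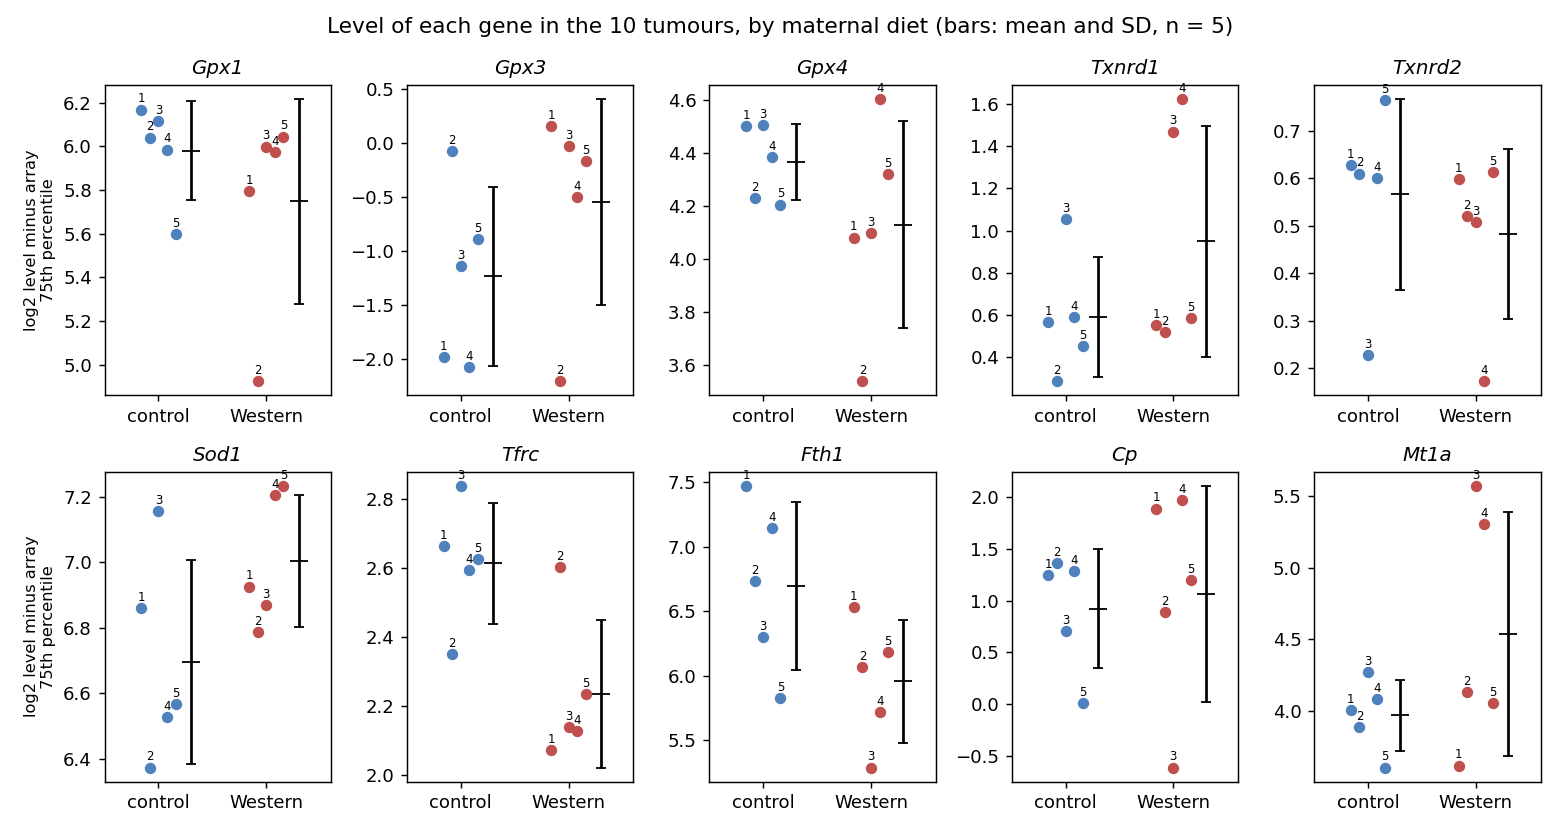
Level of each of the 10 genes in every tumour (log2 above the array's 75th percentile, y axis) for the control diet and Western-style diet groups, with each group's mean and SD. The 5 Sod1 levels of the Western-style diet group all lie above the control mean, the 5 Tfrc and 5 Fth1 levels all lie below it, and the groups overlap in each panel.

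Among the selenoproteins, the glutathione peroxidases Gpx1 and Gpx4 were close between the diets and Gpx3 varied several-fold from tumour to tumour in both. Gpx1, the abundant cytosolic peroxidase that reduces hydrogen peroxide, had levels of 6.17, 6.04, 6.11, 5.98 and 5.60 in control tumours 1 to 5. In the Western-style diet tumours 1 to 5 its levels were 5.79, 4.93, 6.0, 5.97 and 6.04. A single tumour, Western-style diet tumour 2, was low, and the other 4 lay within the control range. The means were 5.75 ± 0.47 (SD, n = 5) against 5.98 ± 0.23 (SD, n = 5), a difference of -0.23 with a standard error of 0.22 (limma, unadjusted p = 0.321, adjusted p = 0.636). Without that tumour the difference was -0.03. A second probe of Gpx1 followed the first over the tumours (Pearson r = 0.81) and was also lowest in that tumour, at 5.07, but its group difference was 0.08, of the other sign.

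Gpx4, the peroxidase that reduces lipid hydroperoxides in membranes and guards cells against ferroptosis, had a pattern over the tumours much like that of Gpx1. Its levels ran from 4.21 to 4.51 in control tumours and from 3.54 to 4.61 in the Western-style diet tumours, the lowest again in tumour 2. The difference was -0.24 with a standard error of 0.19 (limma, adjusted p = 0.57) and -0.09 without that tumour. Over the 10 tumours Gpx1 and Gpx4 had a Pearson r of 0.87 and a Spearman rho of 0.60, and r was 0.58 without Western-style diet tumour 2 and control tumour 5. Both levels come from the same arrays and share their scaling. On slide 1, which held Western-style diet tumour 2, the difference was -0.68 for Gpx1 and -0.42 for Gpx4, while on slides 2 and 3 it was 0.13 and -0.03 for Gpx1 and -0.0037 and -0.12 for Gpx4.

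Gpx3, the secreted peroxidase of plasma and extracellular fluid, was the most variable of the 5 selenoproteins among the 10 genes, with a 5.16-fold range over the tumours and an SD above that of 94.8% of all genes tested. Its control levels were -1.99, -0.07, -1.14, -2.08 and -0.89. In the Western-style diet tumours it stood at 0.16, -2.21, -0.02, -0.50 and -0.17. Of these, 4 lay above the control mean and tumour 2 was the lowest of all 10, and its probe was well above background on 4 of the 5 arrays of that group and on 5 of 5 controls. The difference was 0.69 with a standard error of 0.49 (limma, unadjusted p = 0.188, adjusted p = 0.513). Without tumour 2 it was 1.1 (unadjusted p = 0.016, adjusted p = 0.249). Within slides it was -0.95, 0.75 and 1.87. The tumours with high Gpx3 tended to be those with high macrophage and fibroblast markers. Pearson r over the 10 tumours was 0.85 with the mean of 6 macrophage markers (1.72 to 3.89 in the Western-style diet group, 2.09 to 3.02 in controls). It was 0.87 with 5 fibroblast markers (2.66 to 4.74 and 2.18 to 4.09) and 0.87 with Cfd (1.55 to 4.95 and 1.92 to 4.95), the 1 adipocyte marker of 5 that was kept. Adipoq, Lep and Fabp4 were not well above background on enough arrays to be kept, and no probe was matched to Plin1. Western-style diet tumour 2 had the lowest macrophage marker mean and the lowest Cfd level of all 10 tumours. With the 2 kept endothelial markers r was 0.32 (-0.67 to 0.16 and -1.06 to -0.13), and Western-style diet tumour 2 stood at 0.0047. Of these 2, Cdh5 cleared background in 2 of 5 Western-style diet tumours and 3 of 5 controls. The part of these cells in the Gpx3 values was not tested. The genes most like Gpx3 over the tumours, among 8269 named ones, were RT1-Db2 (r = 0.98), a class II histocompatibility gene, and Igfbp6 (r = 0.97), a secreted growth factor binding protein.

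The thioredoxin reductases keep thioredoxin reduced, Txnrd1 in the cytosol and Txnrd2 in mitochondria. The 2 genes ran against each other over the tumours, with a Pearson r of -0.77 and a Spearman rho of -0.67. Without Western-style diet tumours 3 and 4, the 2 farthest in Txnrd1, r was -0.84. Control tumour 3, at 1.05 for Txnrd1 and 0.23 for Txnrd2, stayed in that value. No r was computed without all 3 of these tumours. Txnrd1 levels were 0.57, 0.29, 1.05, 0.59 and 0.45 in controls. In the Western-style diet tumours they were 0.55, 0.52, 1.47, 1.62 and 0.59. Tumours 3 and 4 of that group stood above the rest and control tumour 3 came next, while the other 7 lay between 0.29 and 0.59. The difference was 0.36 with a standard error of 0.26 (limma, unadjusted p = 0.19, adjusted p = 0.515), and it was 0.23 without tumour 3 and 0.19 without tumour 4. All 3 high tumours lay on slide 2, where the difference was 0.79, and it was 0.25 on slide 1 and 0.0070 on slide 3. A second probe gave 0.41 (r = 0.86 with the first). Another probe gave -0.21, had an r of -0.27 with the first and cleared background on only 2 of the 5 arrays of the Western-style diet group. Txnrd2 was among the steadiest genes: its SD over the tumours, 0.18, exceeded that of only 6.94% of genes tested. It stood at 0.48 ± 0.18 against 0.57 ± 0.20 (SD, n = 5 each), a difference of -0.08 with a standard error of 0.15, and its lowest values were 0.17 in Western-style diet tumour 4 and 0.23 in control tumour 3.

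Both reductases followed array brightness (log2 of the array's 75th percentile): r was -0.67 for Txnrd1 and 0.67 for Txnrd2 over the 10 arrays. With brightness as a covariate the diet difference was 0.0020 for Txnrd1 and 0.10 for Txnrd2. The part of brightness itself was not tested, and the brighter arrays were mostly controls. The 3 tumours high in Txnrd1 were also the 3 lowest in milk-secreting epithelium markers, a mean over 4 kept genes of 5 of 0.31 and -2.04 in Western-style diet tumours 3 and 4 and -0.13 in control tumour 3. The other 7 tumours lay between 1.72 and 4.08. Over all 10, r with these markers was -0.88 for Txnrd1 and 0.76 for Txnrd2, and their part in the reductase values was not tested.

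Of 18 other selenoprotein genes listed, 15 were on the array and 11 were kept, 4 with a higher and 7 with a lower mean. Their median difference was -0.04, against -0.06 over the tested genes with a symbol, and none passed the test. At an unadjusted p under 0.05 were 1 higher gene and 2 lower ones, against 7.8% higher and 7.72% lower of all genes. Of the 8270 tested genes with a symbol, 363 were higher and 881 lower at that p. Dio3, which inactivates thyroid hormone, was the higher one, at -1.23 against -2.25, a difference of 1.02 (limma, unadjusted p = 0.0318, adjusted p = 0.276). It was dim, clearing background in 3 of 5 tumours of the Western-style diet group and 4 of 5 controls. Selenof, a resident of the endoplasmic reticulum, stood at 2.53 against 3.13, a difference of -0.60 (adjusted p = 0.314). Selenoo, a mitochondrial selenoprotein, stood at -0.05 against 0.49, a difference of -0.54 (adjusted p = 0.275). No probe of the array was matched to Selenop, the plasma carrier of selenium, so it has no value here. Of 9 genes listed as selenocysteine machinery, 6 were kept, 3 higher and 3 lower, with a median of 0.02 and none at an unadjusted p under 0.05. They ran from -0.26 for Trnau1ap to 0.40 for Secisbp2, the protein that binds the insertion element in the messenger RNA (adjusted p = 0.366). The selenoprotein genes thus lay on both sides of 0.

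Sod1, the copper and zinc superoxide dismutase of the cytosol, was the steadiest of the genes with a higher mean. Control levels were 6.86, 6.37, 7.16, 6.53 and 6.57. Levels in the Western-style diet tumours were 6.93, 6.79, 6.87, 7.21 and 7.23, all above the control mean, with control tumours 1 and 3 inside their range. The means were 7.0 ± 0.20 against 6.70 ± 0.31 (SD, n = 5 each), a difference of 0.31 or 1.24-fold (standard error 0.18, limma unadjusted p = 0.112, adjusted p = 0.421, exact permutation p = 0.103). A second probe gave 0.24 and followed the first with r = 0.96. The difference had the same sign on all 3 slides, at 0.48, 0.18 and 0.54. Sod1 had an r of -0.53 with array brightness, and with brightness as a covariate its difference was 0.20. The part of brightness was not tested. Among 23 other peroxide and thiol enzymes, 18 were kept, 6 higher and 12 lower, with a median of -0.16 against -0.06 over the genes with a symbol. At an unadjusted p under 0.05 were 1 higher and 4 lower of the 18, and none passed the test. The background at that p was 7.8% higher and 7.72% lower of all genes. Among the 8270 tested genes with a symbol it was 363 higher and 881 lower. Gpx8, a peroxidase of the endoplasmic reticulum that uses cysteine in place of selenocysteine, stood at 2.59 ± 0.28 against 2.11 ± 0.18, a difference of 0.48 (adjusted p = 0.228), with 5 of 5 tumours above the control mean. Prdx4, the peroxiredoxin of the same compartment, stood at 1.57 ± 0.16 against 2.23 ± 0.50, a difference of -0.67 (adjusted p = 0.22), with 5 of 5 below it. Txnip, which binds and inhibits thioredoxin, stood at 2.92 ± 0.67 against 3.75 ± 0.49, a difference of -0.83 (adjusted p = 0.268).

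The iron genes gave the lowest unadjusted p-values of the 10. Tfrc, the receptor that brings transferrin-bound iron into cells, had control levels of 2.66, 2.35, 2.84, 2.59 and 2.63. Its levels in the Western-style diet tumours were 2.07, 2.60, 2.14, 2.13 and 2.23. Of these, 4 lay below every control tumour, and tumour 2 lay among the controls, of which tumour 2 was the lowest. The means were 2.24 ± 0.21 against 2.61 ± 0.18 (SD, n = 5 each), so the mean level of Tfrc messenger RNA was lower by 1.30-fold. The difference was -0.38 with a standard error of 0.15 (95% interval -0.71 to -0.05, limma unadjusted p = 0.0287, adjusted p = 0.268, exact two-sided permutation p = 0.0238, where the smallest possible is 0.00794). Within slides it was -0.01, -0.60 and -0.39. A second Tfrc probe, printed as 10 spots per array, gave -0.32 (unadjusted p = 0.09, r = 0.57 with the first). The SD over those 10 spots was 0.11 to 0.54 depending on the array. Another gave -0.17 and cleared background in 1 of 5 tumours of the Western-style diet group and 4 of 5 controls. Averaging all kept probes gave -0.29 (unadjusted p = 0.0995). When tumours were left out in turn, the unadjusted p lay above 0.05 in 6 of 10 cases: without tumour 1, 3 or 4 of the Western-style diet group it was 0.0636, 0.0563 and 0.06, and without control tumour 1, 3 or 5 it was 0.0561, 0.068 and 0.052.

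Tfrc is known to be high in dividing cells and in red cell precursors. Of 5 proliferation markers, 3 were kept (Mcm2, Ccnb1 and Pcna), with means of -0.70 to 0.94 in the Western-style diet tumours and -0.16 to 1.45 in controls, and r with Tfrc was 0.35. Of 5 erythroid markers, 2 were kept, Hbb and Alas2, with means of -2.26 to 0.78 and -1.47 to 1.93, and r was 0.49. Alas2 cleared background in only 1 of 5 Western-style diet tumours, against 5 of 5 controls, so this mean and its r rest partly on a dim probe. With the macrophage markers r was -0.71, with the fibroblast markers -0.57 and with Cfd -0.73. It was 0.51 with the luminal, 0.10 with the milk-secreting epithelium and -0.34 with the endothelial markers. The part of these cells in the Tfrc values was not tested. Tfrc also ran against Gpx3 over the tumours (Pearson r = -0.77, Spearman rho -0.72, and r = -0.81 without the 2 farthest tumours). The named genes most like it were Glt8d1 (r = 0.96) and Adh5 (r = 0.89).

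Fth1, the ferritin heavy chain, which oxidises iron for storage, had the lowest difference of the 10 genes. Its control levels were 7.47, 6.73, 6.30, 7.15 and 5.83. In the Western-style diet tumours the levels were 6.53, 6.06, 5.29, 5.71 and 6.18, all below the control mean, and control tumours 3 and 5 lay inside their range. The means were 5.96 ± 0.48 against 6.70 ± 0.66 (SD, n = 5 each), lower by 1.67-fold: the difference was -0.74 with a standard error of 0.32 (95% interval -1.45 to -0.03, limma unadjusted p = 0.0428, adjusted p = 0.304, exact permutation p = 0.0873). The second probe gave -0.93 and followed the first with r = 0.96, and averaging both gave -0.83 (unadjusted p = 0.0557). The sign was the same on every slide, at -0.43, -0.56 and -1.13. With a tumour left out, the unadjusted p lay above 0.05 in 6 of 10 cases. Without tumour 2, 3 or 4 of the Western-style diet group it was 0.058, 0.106 and 0.083, and without control tumour 1, 2 or 4 it was 0.11, 0.0694 and 0.099. The difference was nearest to 0 without Western-style diet tumour 3, at -0.57, and without control tumour 1, at -0.54. With quantile normalization the unadjusted p was 0.0621. Rat ferritin has processed gene copies, and whether the probes also pick up their transcripts was not tested. With array brightness r was 0.57, and with brightness as a covariate the Fth1 difference was -0.48 (unadjusted p = 0.269) and that of Tfrc -0.50 (unadjusted p = 0.0216). With the macrophage and fibroblast markers r was -0.54 and -0.70. It was -0.74 with the 2 kept endothelial markers, 0.62 with the luminal markers and 0.61 with the milk-secreting epithelium markers. The part of brightness and of these cells was not tested.

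The light chain of ferritin, Ftl1, which helps to build the iron core, had a difference of the other sign. It stood at 7.12 ± 0.60 in the Western-style diet group and 6.57 ± 0.33 in controls, a difference of 0.55 (limma, unadjusted p = 0.0765, adjusted p = 0.368). The balance of the 2 chains within a tumour was computed after their values were seen, as the log2 level of Fth1 minus that of Ftl1. This ratio is compared between groups and does not give the abundance of one chain against the other. It was -1.16 ± 0.92 in the Western-style diet tumours, from -2.13 to -0.14, and 0.13 ± 0.79 in controls, from -0.68 to 1.25. The ratio was below the control mean in 5 of 5 Western-style diet tumours, and the groups overlapped. The difference, -1.29 or 2.44-fold, is that of Fth1 minus that of Ftl1 and is given with no test, since the pair was chosen for its opposite signs. On the 3 slides it was -0.23, -1.55 and -1.88. Over the 10 tumours the chains had a Pearson r of -0.53 and a Spearman rho of -0.48, and r was -0.25 without the 2 farthest.

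Of 27 other iron genes listed, 23 were on the array and 13 were kept, 7 with a higher and 6 with a lower mean. None was at an unadjusted p under 0.05, and their median difference was 0.0026. Ftl1 had the highest difference and Slc40a1, the iron exporter ferroportin, the lowest, -0.33, from a dim probe that cleared background in 3 of the 5 Western-style diet tumours. Slc11a2, which carries iron across the endosome membrane after transferrin uptake, had a difference of -0.30 (adjusted p = 0.404). Aco1 and Ireb2, the iron regulatory proteins, had differences of -0.18 and -0.27, and Hmox1, which frees iron from haem, 0.31. The other iron genes were thus spread evenly about 0, beside the lower means of Tfrc and Fth1.

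**Figure D3:**
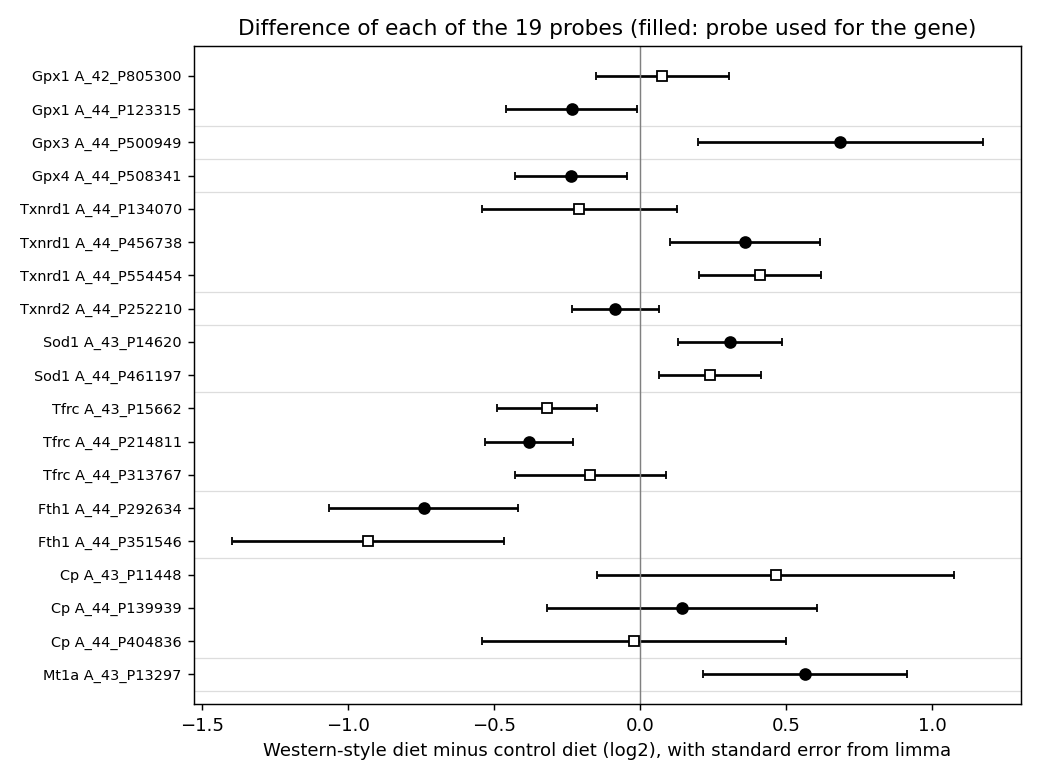
Difference between the group means (Western-style diet minus control, log2 units) for each of the 19 probes of the 10 genes. Both Fth1 probes (-0.74 and -0.93) and all 3 Tfrc probes (-0.38, -0.32 and -0.17) lie below 0, while the probes of Gpx1, Txnrd1 and Cp lie on both sides of it.

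Ceruloplasmin, the copper oxidase that loads iron onto transferrin, varied widely between tumours and showed no diet difference beyond that spread. Its levels were 1.25, 1.37, 0.70, 1.29 and 0.01 in controls and 1.89, 0.89, -0.62, 1.97 and 1.20 in the Western-style diet tumours. The highest, 1.97, and the lowest, -0.62, both came from the Western-style diet group, a 6.01-fold range. The difference was 0.14 with a standard error of 0.46 (limma, adjusted p = 0.905), and the 95% interval, -0.87 to 1.16, is wide. Its other probes gave 0.47 and -0.02, and leaving out Western-style diet tumour 1 or 4 or control tumour 5 gave -0.06, -0.08 and -0.08. Liver is the main source of plasma ceruloplasmin. Of 5 hepatocyte markers only Serpina1 was kept (-1.37 to 0.14 against -0.64 to 1.33, r = -0.27 with Cp), and Alb, Apoa1, Ttr and Fgb were not well above background on enough arrays to be kept. The named genes most like Cp were Ephx1 (r = 0.93), the microsomal epoxide hydrolase, and Pdzk1ip1 (r = 0.91). Of 12 other copper genes, 7 were kept, 2 higher and 5 lower, with a median of -0.19 and none at an unadjusted p under 0.05. Of the tested genes with a symbol, 42.1% had a higher mean, and their median was -0.06. Sod3, the extracellular superoxide dismutase, had a difference of 0.37 and Cox17, the copper chaperone for cytochrome oxidase, 0.35. Slc31a2, a copper transporter relative, had -0.54 from a probe that cleared background in 2 of 5 Western-style diet tumours. Ccs, which hands copper to Sod1, had a difference of -0.33 (adjusted p = 0.493).

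Mt1a, whose promoter with 6 metal response element matches is printed above, was high in 2 tumours of the Western-style diet group. Control levels were 4.00, 3.88, 4.27, 4.08 and 3.60. Western-style diet tumours stood at 3.62, 4.13, 5.57, 5.30 and 4.05. Tumours 3 and 4 lay more than 1 log2 unit above every control, and the other 3 lay inside the control range. The SD was 0.85 in the Western-style diet group and 0.25 in controls, a ratio of 3.43, the highest of the 10 genes. The difference in means was 0.57 with a standard error of 0.35 (limma, unadjusted p = 0.135, adjusted p = 0.452, exact permutation p = 0.246), and without tumour 3 or tumour 4 it was 0.31 and 0.37. Both tumours lay on slide 2, where the difference was 1.5. It was -0.0096 and 0.0094 on slides 1 and 3.

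Mt2A, the neighbouring metallothionein with 4 matches, was also highest in these tumours apart from 1 control. It stood at 2.94, 3.52, 3.38, 2.93 and 4.37 in controls and at 3.23, 3.48, 4.85, 4.28 and 3.41 in the Western-style diet group, a difference of 0.42 (limma, adjusted p = 0.59). Control tumour 5 was high in Mt2A and the lowest of all in Mt1a, at 3.60. Pearson r of the pair was 0.64, Spearman rho 0.22, and r was -0.49 without the 2 farthest tumours, so the agreement rests on those tumours. The log2 ratio of Mt1a over Mt2A, taken after the values were seen, differed by 0.15, given with no test. Metallothionein sequences are alike, and cross-hybridisation of the probes was not tested.

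Mt1a ran closest to Txnrd1 among the 10 genes. Pearson r was 0.92 and Spearman rho 0.82, and r was 0.59 when Western-style diet tumours 3 and 4 were left out. The same 2 tumours were low in milk-secreting epithelium markers, as given above, and r of these markers with Mt1a was -0.74. Control tumour 3 had those markers at -0.13 and the highest Mt1a of the controls, 4.27. With array brightness r was -0.63, and with brightness as a covariate the diet difference of Mt1a was 0.12. The part of the milk-secreting cells, of brightness and of slide 2 was not tested. The named genes most like Mt1a were N4bp2l1 (r = 0.93) and Rbpj (r = 0.93), the DNA-binding partner of Notch. Of 16 other zinc and metallothionein genes, 14 were kept, 7 higher and 7 lower, with a median of -0.0088. At an unadjusted p under 0.05 was 1 of the 14, against 15.5% of all genes. It was Slc30a7, a zinc carrier of the Golgi, at -0.67 against -0.32, a difference of -0.35 (limma, adjusted p = 0.32, 5 of 5 below the control mean). Slc39a14, which imports zinc and non-transferrin iron, had the highest difference, 0.61 (adjusted p = 0.337, 5 of 5 above it). Slc30a4, a zinc exporter of mammary gland, had the lowest, -0.64, from a probe that cleared background in 3 of the 5 Western-style diet tumours. Mtf1, the factor that binds the metal response element, had a difference of 0.12.

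**Figure D4:**
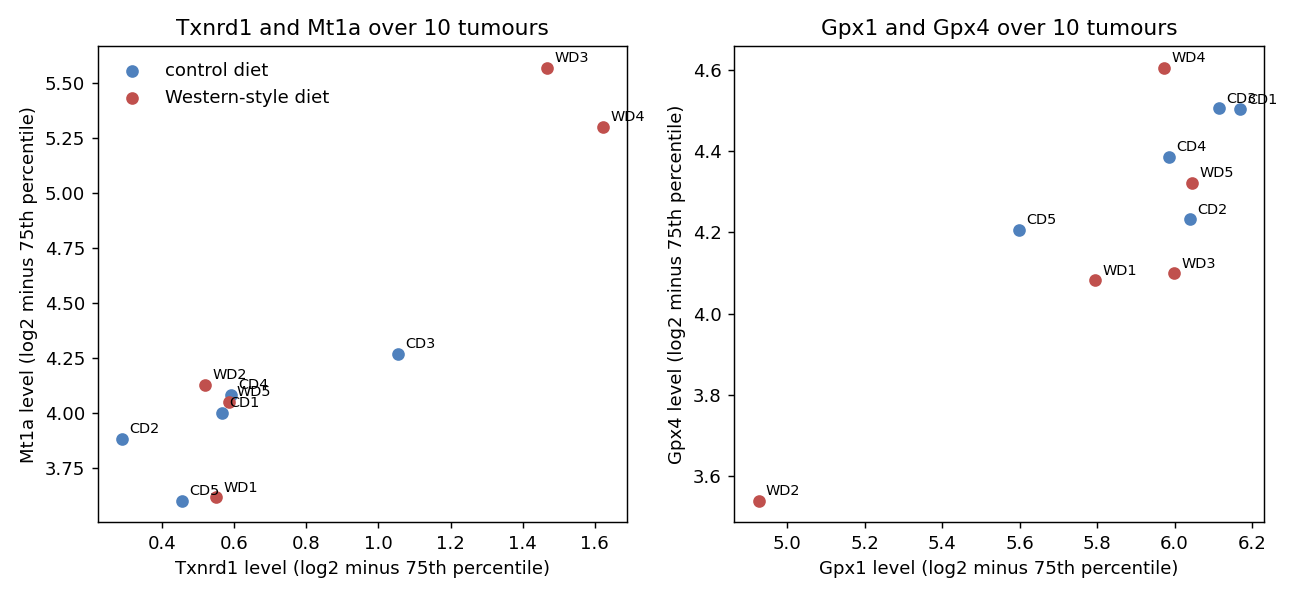
Levels of pairs of genes in the same tumour (log2 above the array's 75th percentile on both axes), 1 point per tumour, coloured by maternal diet. Western-style diet tumours 3 and 4 stand apart in the Txnrd1 and Mt1a panel, and Western-style diet tumour 2 lies low in the Gpx1 and Gpx4 panel.

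Of the remaining genes, each had close followers over the 10 tumours, all sharing the arrays and their scaling, among 8269 named genes. Gpx1 was closest to Tmem205 (r = 0.95) and Bud31 (r = 0.94), and Gpx4 to Rab11a (r = 0.96) and Snrnp27 (r = 0.94). Txnrd1 was closest to Rab27a, where r was 0.97 and Spearman rho only 0.65, and to Pip4k2a (r = 0.94). Txnrd2 was closest to Mettl13 (r = 0.96) and Plekhg2 (r = 0.92), Sod1 to Zmat3 (r = 0.96) and Lap3 (r = 0.94), and Fth1 to Ap2a2 (r = 0.94) and Stbd1 (r = 0.93). With this many genes and 10 tumours such values are the top of a long ranking and describe these tumours only.

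**Figure D5:**
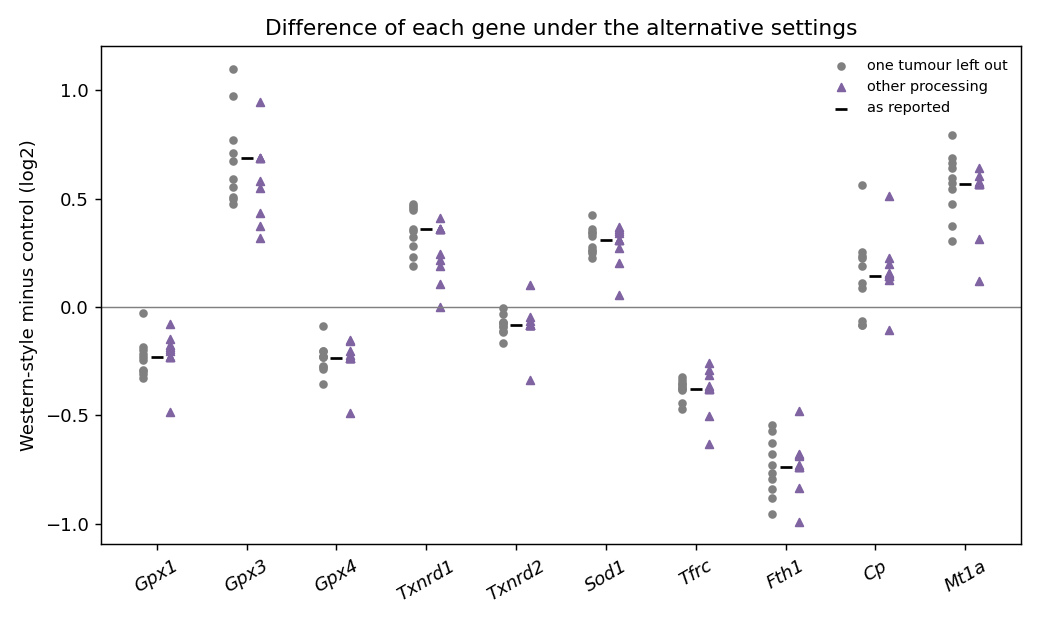
Difference of each gene (Western-style diet minus control, log2 units) as reported, under other ways of processing the arrays and with 1 tumour left out. Gpx1, Gpx4, Tfrc and Fth1 lie below 0 in all runs that held them, and Gpx3, Txnrd1, Sod1 and Mt1a lie above 0. The lowest value was 0.0020 for Txnrd1 and 0.056 for Sod1. Cp and Txnrd2 each cross 0 in at least 1 run.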

How the data were processed

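Total RNA of 10 tumours was measured on 1-colour Agilent arrays. Per the file headers, the authors read them with Feature Extraction 11.5.1.1 (the submitters' processing notes name 15.5), and the deposited intensity values are background-subtracted processed signals, with other columns that mark spots as well above background, outlying or saturated. The deposited series matrix holds log2 values, found to be quantile-normalised median signals and used as an alternative. Its software is not given by the labels or headers used here.

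Here the processed signals of 43379 measuring spots (1639 controls left out) were taken to log2 minus each array's 75th percentile, outlier spots were left out and spots of a probe were averaged. Probes well above background on at least 5 of 10 arrays were kept (19745 of 41012). RefSeq names (GRCr8) matched 17502 probes (42.7%) by transcript identifier, and the kept probe with the highest mean level stood for a gene, which gave 16779 genes. The diets were compared by lmFit and eBayes of limma (3.58.1, R 4.3.3), with Benjamini-Hochberg adjustment over all genes, and single values by exact permutation of the 252 splits. On simulated data the fit recovered 54% of 100 genes changed 2-fold and 89% of 100 changed 4-fold over 16779 genes, with 8 false calls. Named genes were all members with every probe, the highest, the lowest and the 2 of smallest p in each wider list, and the 2 most alike genes; Aco1, Ireb2, Hmox1, Ccs, Mtf1 and Mt2A were added for their roles after their values were seen. The members and lists were chosen with earlier results of these data known. Array number and number of tumours limit the precision.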

Additional observations from a re-analysis of the deposited data

Results flagged for a closer look

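Among 20 sets of 5 tumours (10 genes in each group), 3 had a tumour far from the rest by Dixon's ratio, the gap to the nearest tumour over the whole range, which has a critical value of 0.71. Chance gives about 1 in 20. For Gpx1, Western-style diet tumour 2 stood at 4.93 and the next at 5.79, a ratio of 0.776. For Gpx3, the same tumour stood at -2.21 and the next at -0.50, a ratio of 0.720. For Txnrd2, Western-style diet tumour 4 stood at 0.17 and the next at 0.51, a ratio of 0.760.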

How the results depend on the processing

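No gene passed the adjusted test under any setting run, so side of that threshold says nothing about stability. Of 199 member values 194 kept their direction. At an unadjusted p under 0.05, Tfrc and Fth1 each held in 10 of 20 alternatives and together in 5, of which 1 was a tumour left out. Genes at an unadjusted p under 0.05 numbered 2603 (1308 higher). They were 496 with normexp background correction (348 higher), 7055 without the filter on dim probes (5997 higher) and 963 with brightness as a covariate, and 1853 to 3283 with a tumour left out. Centring on the array median moved the median of all genes to -0.24 and gave 3640 (331 higher, 3309 lower). Relative to that median Tfrc was at -0.39 and Fth1 at -0.75. The deposited series matrix gave 2289 (851 higher). Of the members, 2 were at an unadjusted p under 0.05. The number was 0 with normexp and with the mean over probes, 1 without the filter and 1 with brightness as a covariate. It was 0 to 2 with a tumour left out: 0 without Western-style diet tumour 3 or 4 or control tumour 1. Where it stayed at 2 the genes could differ: Fth1 and Mt1a without Western-style diet tumour 1, Tfrc and Gpx3 without tumour 2, Fth1 and Sod1 without control tumour 3, and Tfrc and Sod1 with quantile normalization. Txnrd2 turned to 0.10 with brightness as a covariate. Cp turned to -0.11 on median centring and ran from -0.085 to 0.56 with a tumour left out. The cause was not tested. With the replicate number as a block, 2676 genes and 1 member (Fth1) were at an unadjusted p under 0.05. Same-numbered tumours had r of -0.02 to 0.16, and 0 of 5 correlated best with their own number, so the numbers were not taken as pairs. Gpx3 was not kept where all 10 arrays had to be above background. Dim probes and the dimmer Western-style diet arrays limit the low genes.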
